A study of Mus musculus with 12 samples.

Results

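Glycolysis and the response to low oxygen were followed through 32 genes: carriers of glucose and lactate, enzymes and regulators of glycolysis, and the hypoxia-inducible factor (HIF) system with its target genes. They were chosen by their symbol in the deposited table, where they take 33 of 32246 rows, since the symbol Aldoa stands on 2 rows. Earlier results of these data were known when the genes were chosen. The cells were mouse bone marrow-derived macrophages grown for 7 days with GM-CSF, a growth factor of myeloid cells, at 50 ng/mL. In the PLG+EACA+RNase group the cells received plasminogen (PLG, the precursor of the protease plasmin) that had been exposed to EACA, a lysine analogue that binds plasminogen, and to RNases. In the PLG+EACA group the plasminogen had been exposed to EACA alone, and the remaining group was left untreated. Treatment lasted 24 h, and total RNA was sequenced in 4 replicates per group (12 libraries in 3 groups). No group received EACA by itself, RNases without plasminogen, or plasminogen without EACA. An effect of RNases on the cells therefore cannot be told apart from an effect of RNase-exposed plasminogen. The labels name no difference in oxygen between the groups. Whether replicates stem from different mice or dishes is not given in the labels, so p-values measure only the spread between these samples, which may be technical.

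Glycolysis splits glucose into pyruvate, and lactate dehydrogenase turns pyruvate into lactate, which leaves the cell through monocarboxylate carriers. The HIF alpha subunits are made all the time, but in the presence of oxygen the EGLN prolyl hydroxylases mark them for destruction. When they are spared they enter the nucleus and switch on genes of glycolysis, lactate export, blood vessel growth and mitophagy, EGLN3 among them. In macrophages inflammatory stimuli also raise HIF-1 alpha and glycolysis without a lack of oxygen.

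The libraries held from 12940887 to 22677046 counted reads, recovered from the steps of the deposited FPKM values. All 9 macrophage markers were detected, with a summed level of 4082 to 4643 FPKM in PLG+EACA+RNase libraries, 4156 to 6089 in PLG+EACA libraries and 5327 to 5934 in untreated libraries. All 7 dendritic cell markers were above 0 in at least 1 library of each group, but only 4 reached 1 FPKM in at least 4 libraries. The 7 summed to 518 to 570 FPKM with PLG+EACA+RNase, 422 to 556 with PLG+EACA and 569 to 620 in untreated cells. Neutrophil markers summed to 23.3 to 56.5 FPKM with PLG+EACA+RNase, 24.6 to 67.9 with PLG+EACA (Retnlg at 0) and 13.4 to 55.9 in untreated cells (Ly6g at 0). Lymphocyte markers stayed at or below 0.547 FPKM (Ms4a1 at 0 with PLG+EACA+RNase, Nkg7 at 0 in untreated cells). Stromal and endothelial markers summed to 5.92 to 15.4 FPKM with PLG+EACA+RNase, 5.99 to 21.7 with PLG+EACA and 8.10 to 18.1 in untreated cells. Mast cell and basophil markers summed to 2.64 to 18.7 FPKM with PLG+EACA+RNase, 1.78 to 1.96 with PLG+EACA and 2.74 to 5.63 in untreated cells. The part of these cells in the results was not tested. In bulk RNA, fewer cells of a type and less RNA per cell cannot be told apart.

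Fold changes are on the log2(FPKM + 0.5) scale, which understates the change of genes with low values. The median of all 11165 genes tested was -0.26 for PLG+EACA against untreated cells, -0.20 for PLG+EACA+RNase against untreated cells and 0.04 for PLG+EACA+RNase against PLG+EACA. Calls against untreated cells are therefore given on 2 scales: the deposited one, and one in which median-of-ratios scaling brings the first 2 medians to -0.01 and 0.01. Log2 fold changes and adjusted p-values are on the deposited scale unless another setting is named. For PLG+EACA against untreated cells, for example, scaling took Pfkp from 0.27 to 0.54 and Pfkfb4 from -0.72 to -0.47. Whether the FPKM of libraries overlap was read on the deposited scale only. How many of all genes show no overlap was not counted. A gene is called higher or lower when limma's test passes at an adjusted p of 0.05 (Benjamini-Hochberg over all genes tested).

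Per length, Aldoa (aldolase A) was the most abundant, with a mean of 434 FPKM over the 12 libraries, ahead of Gapdh with 338 FPKM and Pkm (pyruvate kinase) with 295 FPKM. Pgk1 with 149 FPKM and Hk3 with 119 FPKM followed. Of 32 neighbouring pairs in this order, 3 did not overlap over the 12 libraries, namely Aldoa and Gapdh, Pkm and Pgk1, and Pgk1 and Hk3, and the other 29 did. Hif1a stood at 19.0 FPKM. The lowest were Adm with 0.927 FPKM, P4ha2 with 0.469 FPKM, the second Aldoa row with 0.256 FPKM and Ankrd37 with 0.233 FPKM. The last 3 did not reach 1 FPKM in 4 libraries and were not tested, which left 30 rows. Egln3 and Adm passed that filter through the treated libraries only. Together the members took 0.773% to 0.834% of the reads in PLG+EACA+RNase libraries, 0.721% to 0.740% in PLG+EACA libraries and 0.746% to 0.785% in untreated libraries, and the PLG+EACA range overlaps neither of the others.

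**Figure D1:**
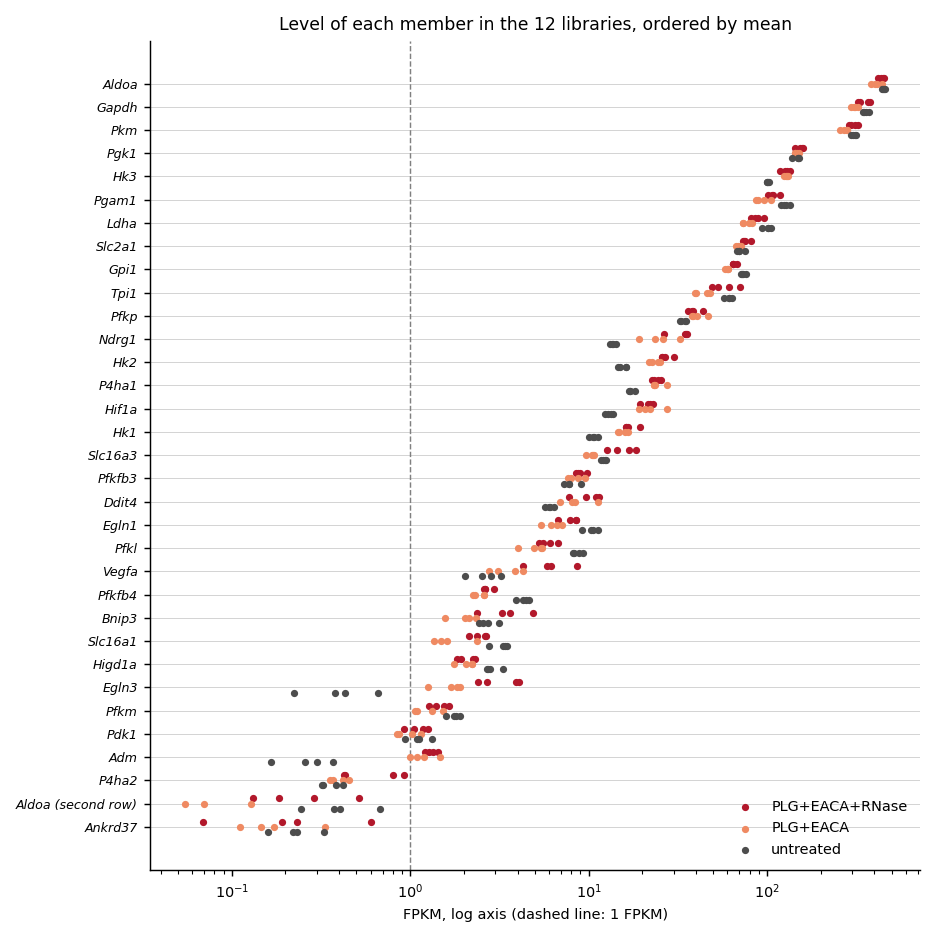
FPKM on a log axis (horizontal) of the 33 rows (vertical), ordered by their mean, with 1 point per library and the groups in 3 colours; a library at 0 (1 PLG+EACA library of the second Aldoa row) cannot be drawn. Egln3 and Adm lie above 1 FPKM in the 8 treated libraries and below it in the 4 untreated ones.

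Between PLG+EACA+RNase and PLG+EACA, 13 of the 30 tested members were higher, where 12.1% of all genes tested were. None (0) were lower, where 8.73% were. Since the genes were chosen with earlier results of these data known, such counts beside the shares of all genes are description only. At an unadjusted p under 0.05 limma had 16 higher and 0 lower. Limma voom on recovered reads called 14 higher and 0 lower, where it called 2427 of all 11165 genes in either direction. After median-of-ratios scaling 7 were higher and 0 lower, where 10.6% and 11.4% of all genes were, and these were Tpi1, Slc16a1, Slc16a3, Egln1, Egln3, Vegfa and Bnip3. The count of higher members changed when 1 library was left out. It was 6, 3, 4 and 15 without PLG+EACA+RNase replicates 1 to 4 and 8, 7, 12 and 5 without PLG+EACA replicates 1 to 4. In a fit of these groups alone it was 2. The share of all genes called in these fits and at an unadjusted p is not given. Whether the change is particular to the members was not tested. Slc16a3 and Egln3 passed in all 18 and 17 alternatives, with an adjusted p of at most 0.0321 and 0.0485. The median log2 fold change was 0.17 for the members and 0.04 for all genes tested.

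PLG+EACA and PLG+EACA+RNase were compared with the same untreated libraries. Against them, 12 members were higher and 8 lower with PLG+EACA+RNase, where 16.0% and 48.4% of all genes were, and after scaling 19 were higher and 2 lower, where 28.4% and 26.4% were. With PLG+EACA 10 were higher and 14 lower, where 14.9% and 53.4% of all genes were, and after scaling 15 were higher and 4 lower, where 27.3% and 26.4% were. On both scales 12 were higher with PLG+EACA+RNase, namely Hk1, Hk2, Hk3, Pfkp, Slc16a3, Hif1a, Egln3, Vegfa, Adm, P4ha1, Ndrg1 and Ddit4, and 2 were lower, Pfkl and Pfkfb4. With PLG+EACA the 10 higher on both were Hk1, Hk2, Hk3, Pfkp, Hif1a, Egln3, Adm, P4ha1, Ndrg1 and Ddit4, and the 4 lower were Pfkl, Pfkfb4, Slc16a1 and Egln1. All 14 of PLG+EACA passed in every alternative, and of the 14 of PLG+EACA+RNase 13 did, with Pfkp as the exception. Egln3 and Adm, which passed the filter on low values only through treated libraries, are in both counts. The median of the members was 0.08 with PLG+EACA+RNase and -0.14 with PLG+EACA, beside -0.20 and -0.26 for all genes. With no filter on low values it lay 0.063 above that of all genes with PLG+EACA+RNase and -0.11 from it with PLG+EACA, so the place of the members' median depended on the filter. By role, of the 7 tested genes under other HIF targets 5 were higher and 1 lower with PLG+EACA+RNase on the deposited scale, and 4 were higher and 1 lower with PLG+EACA. After scaling 6 were higher and 0 lower with PLG+EACA+RNase, and 5 were higher and 0 lower with PLG+EACA. The enzymes depended on the scale: of 14 tested, 4 were higher and 4 lower with PLG+EACA+RNase on the deposited scale and 8 higher and 1 lower after scaling, and with PLG+EACA 4 were higher and 9 lower on the deposited scale and 6 higher and 1 lower after scaling.

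**Figure D2:**
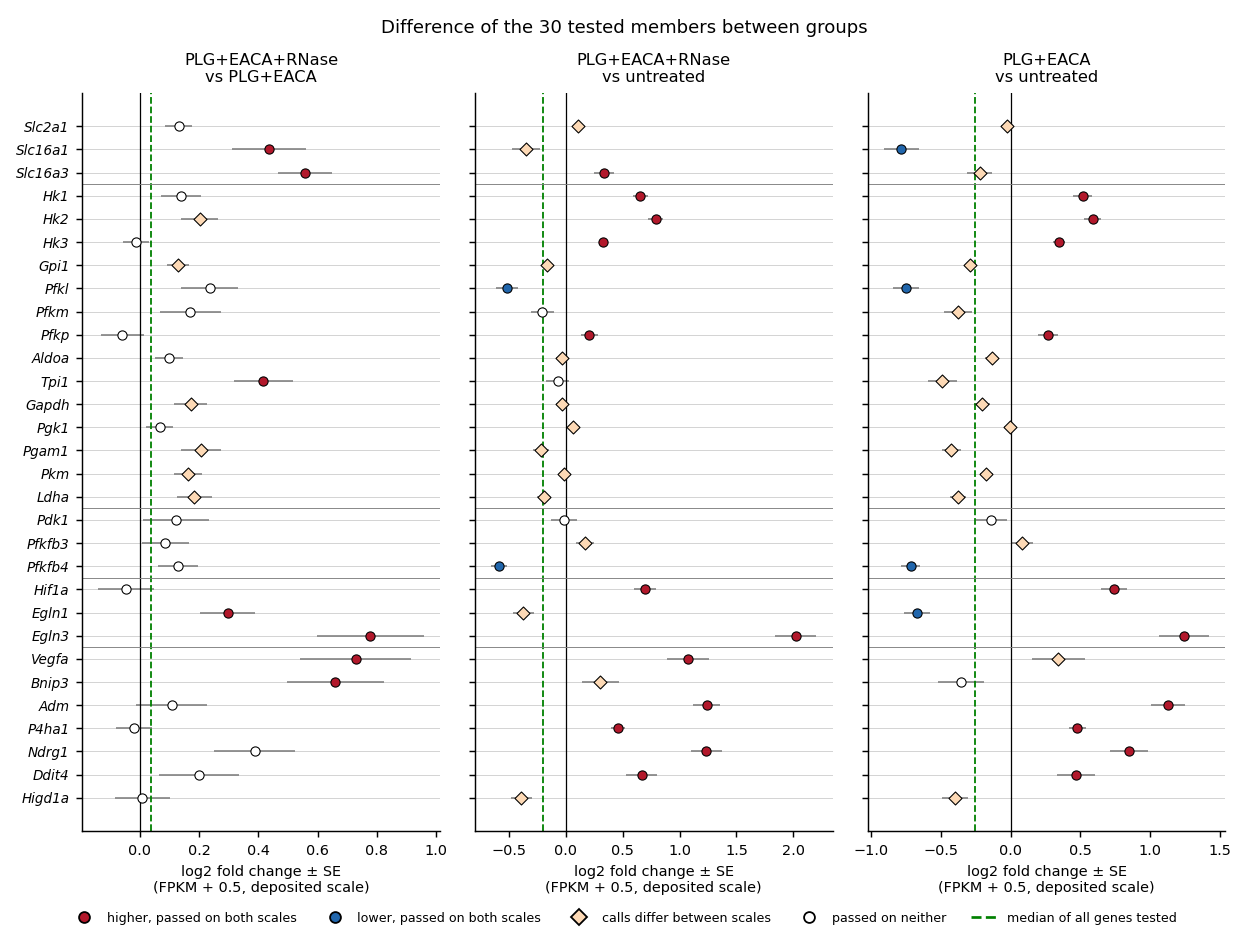
Log2 fold change with its SE (horizontal, deposited scale) of the 30 tested members (vertical, grouped by role) in the 3 comparisons, with the median of all genes tested as a dashed line. Filled circles passed on both scales (7 members in the first panel, 14 in the second and 14 in the third), diamonds are called differently on the scales, and open circles passed on neither.

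The HIF factor and its hydroxylases did not move together. Hif1a, the oxygen-regulated alpha subunit, had 23.0, 19.4, 22.1 and 21.5 FPKM in PLG+EACA+RNase libraries, 22.2, 19.2, 20.8 and 27.4 FPKM in PLG+EACA libraries, and 13.6, 12.8, 13.4 and 12.4 FPKM in untreated libraries. Every treated library lay above every untreated one, while the treatments overlapped. The log2 fold change was 0.70 (SE 0.0931, limma adjusted p = 4.55e-05) for PLG+EACA+RNase against untreated cells and 0.74 (adjusted p = 2.47e-05) for PLG+EACA against untreated cells. Between the treatments it was -0.05 (SE 0.0931, adjusted p = 0.749).

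Egln3, a HIF prolyl hydroxylase that is itself a HIF target, had 2.71, 3.92, 4.06 and 2.40 FPKM with PLG+EACA+RNase, 1.70, 1.82, 1.91 and 1.27 FPKM with PLG+EACA, and 0.380, 0.432, 0.661 and 0.224 FPKM in untreated cells. The 3 groups did not overlap, and replicate 4 was the lowest library of each. Its log2 fold change was 0.78 (SE 0.180, adjusted p = 0.0144) for PLG+EACA+RNase against PLG+EACA, which is 1.71-fold. It was 2.02 (adjusted p = 2.30e-06) for PLG+EACA+RNase and 1.24 (adjusted p = 7.41e-05) for PLG+EACA, both against untreated cells. Egln3 passed the filter on low values through treated libraries only, so these last p-values are given as description only. The gene lies on the minus strand at chr12:54178981-54203860 (GRCm38), and its untreated libraries held as few as 10 reads.

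Egln1, the main HIF prolyl hydroxylase at rest, ran the other way against untreated cells. It had 7.83, 8.53, 8.47 and 6.74 FPKM with PLG+EACA+RNase, 6.15, 6.69, 7.07 and 5.45 FPKM with PLG+EACA, and 10.4, 9.24, 10.6 and 11.3 FPKM in untreated cells. On the deposited scale all treated libraries lay below all untreated ones. PLG+EACA was lower than untreated with a log2 fold change of -0.67 (adjusted p = 4.95e-05), and of -0.41 after median-of-ratios scaling, where it passed too. PLG+EACA+RNase was lower on the deposited scale (-0.37, adjusted p = 0.00344) and did not pass after scaling (-0.15). Between the treatments Egln1 was higher with PLG+EACA+RNase by 0.30 (SE 0.0919, adjusted p = 0.0406), with 1 PLG+EACA library above the lowest PLG+EACA+RNase library. That call was lost without any of PLG+EACA+RNase replicates 1, 2 and 3 and PLG+EACA replicates 1, 2 and 4, and its adjusted p ran from 0.0104 to 0.112 over 18 alternatives.

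**Figure D3:**
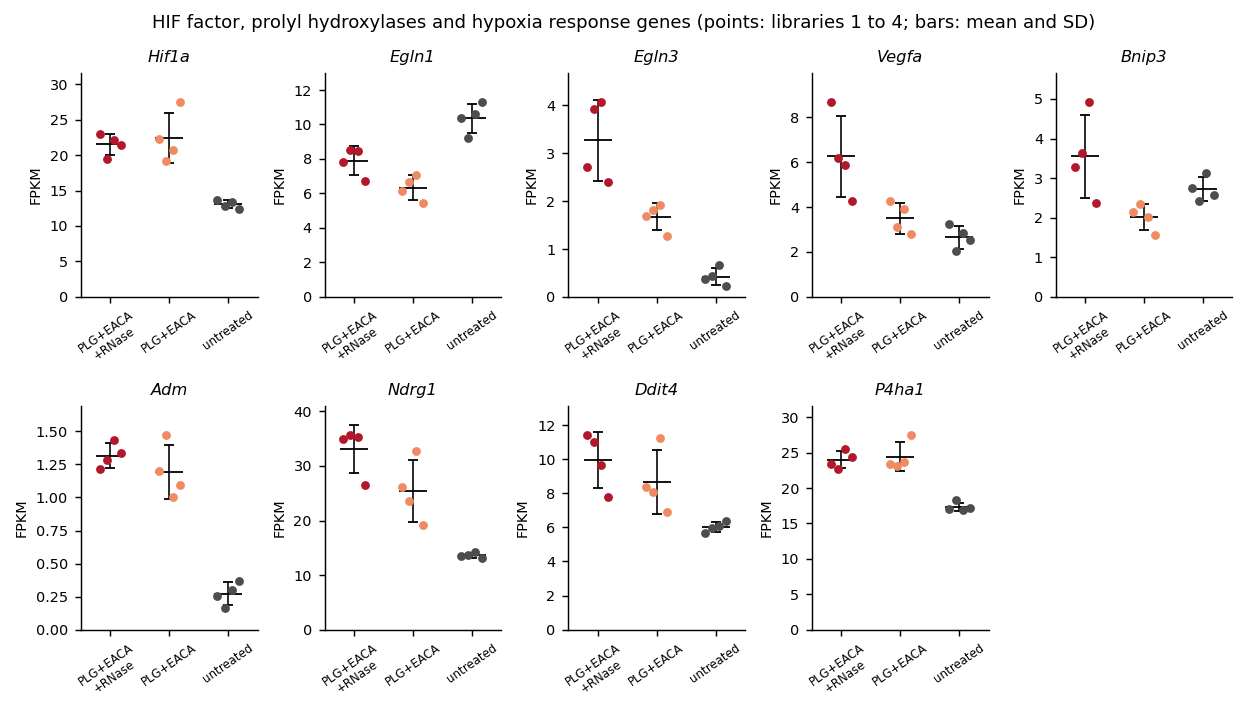
FPKM (vertical, from 0) of 9 members in the 3 groups (horizontal), with 1 point per library and bars for the mean and SD of 4 libraries. Hif1a, Adm and P4ha1 sit at like levels in both treatments and lower in untreated cells, while Egln3, Vegfa and Bnip3 have every PLG+EACA+RNase library above every PLG+EACA library.

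Of the other hypoxia response genes, Vegfa, the angiogenic growth factor, had 8.66, 6.19, 5.88 and 4.29 FPKM with PLG+EACA+RNase, 4.27, 3.10, 3.89 and 2.78 FPKM with PLG+EACA, and 3.24, 2.04, 2.84 and 2.52 FPKM in untreated cells. The PLG+EACA+RNase libraries lay above all others. The log2 fold change was 0.73 (SE 0.187, adjusted p = 0.0211) against PLG+EACA and 1.07 (SE 0.187, adjusted p = 0.000335) against untreated cells. The difference from PLG+EACA no longer passed without PLG+EACA+RNase replicate 2 (adjusted p = 0.0554), PLG+EACA+RNase replicate 3 (0.0522) or PLG+EACA replicate 4 (0.0566), within a range of 0.00399 to 0.0566 over 18 alternatives. For PLG+EACA against untreated cells the log2 fold change was 0.34 (adjusted p = 0.123), and 0.58 after median-of-ratios scaling, where it passed.

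Bnip3, a mitophagy receptor of the outer mitochondrial membrane, had 3.29, 3.64, 4.91 and 2.38 FPKM with PLG+EACA+RNase, 2.15, 2.34, 2.03 and 1.56 FPKM with PLG+EACA, and 2.74, 2.42, 3.13 and 2.58 FPKM in untreated cells. On the deposited scale PLG+EACA lay below both other groups, which overlapped each other. The log2 fold change between the treatments was 0.66 (SE 0.164, adjusted p = 0.0187). It missed the threshold without PLG+EACA+RNase replicate 2 (adjusted p = 0.0536, range 0.00211 to 0.0618 over 18 alternatives). Against untreated cells it was 0.30 (adjusted p = 0.126) for PLG+EACA+RNase, 0.50 after median-of-ratios scaling, where it passed, and 0.46 without PLG+EACA+RNase replicate 4 (adjusted p = 0.0139, within 0.00816 to 0.371 over 18 alternatives). For PLG+EACA against untreated cells it was -0.36 (adjusted p = 0.0709), and -0.13 after median-of-ratios scaling (adjusted p = 0.506). It was lower past the threshold in 2 of 18 alternatives, among them a fit of those groups alone (adjusted p = 0.0174, range 0.0174 to 0.531).

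Adm encodes adrenomedullin, a vasodilator peptide. It had 1.21, 1.28, 1.43 and 1.34 FPKM with PLG+EACA+RNase, 1.20, 1.47, 1.00 and 1.09 FPKM with PLG+EACA, and 0.256, 0.167, 0.302 and 0.368 FPKM in untreated cells. The treatments overlapped (log2 fold change 0.11, SE 0.119, adjusted p = 0.551) and lay above untreated cells, by 1.24 with PLG+EACA+RNase (adjusted p = 3.98e-06) and 1.13 with PLG+EACA (adjusted p = 7.07e-06). These are few reads, 30 to 41 per library with PLG+EACA+RNase, 29 to 54 with PLG+EACA and 4 to 10 in untreated cells. Adm passed the filter on low values through treated libraries only, so its p-values against untreated cells are given as description only.

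Ndrg1, a stress-induced gene of cell growth and differentiation, had 34.9, 35.6, 35.2 and 26.6 FPKM with PLG+EACA+RNase, 26.2, 23.5, 32.7 and 19.3 FPKM with PLG+EACA, and 13.5, 13.7, 14.3 and 13.2 FPKM in untreated cells. Treated libraries all exceeded untreated ones, with a log2 fold change of 1.24 (adjusted p = 1.07e-05) for PLG+EACA+RNase and 0.85 (adjusted p = 0.000169) for PLG+EACA. Between the treatments it was 0.39 (SE 0.137, adjusted p = 0.0625) and missed the threshold. Of 18 alternatives it passed in 5, within a range of 0.0156 to 0.152. Among them were the fits without PLG+EACA+RNase replicate 4 (adjusted p = 0.0179) or PLG+EACA replicate 3 (0.0156) and limma voom on recovered reads (0.0426). It also passed with the replicate number as a block, without scaling (0.0209) and with it (0.0230).

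Ddit4, an inhibitor of the growth kinase mTORC1, had 11.4, 11.02, 9.64 and 7.79 FPKM with PLG+EACA+RNase, 8.38, 8.09, 11.3 and 6.90 FPKM with PLG+EACA, and 5.69, 5.98, 6.07 and 6.38 FPKM in untreated cells. P4ha1, a catalytic subunit of the enzyme that hydroxylates collagen, had 23.4, 22.8, 25.6 and 24.4 FPKM with PLG+EACA+RNase, 23.4, 23.1, 23.6 and 27.5 FPKM with PLG+EACA, and 17.0, 18.3, 16.9 and 17.2 FPKM in untreated cells. In both genes the treatments overlapped each other and lay above untreated cells. Ddit4 rose by a log2 fold change of 0.67 with PLG+EACA+RNase (adjusted p = 0.00102) and 0.47 with PLG+EACA (adjusted p = 0.00884), and P4ha1 by 0.46 with PLG+EACA+RNase (adjusted p = 3.62e-05) and 0.48 with PLG+EACA (adjusted p = 2.33e-05). Higd1a, a mitochondrial inner membrane protein, averaged 2.08 ± 0.245 FPKM with PLG+EACA+RNase, 2.07 ± 0.223 with PLG+EACA and 2.89 ± 0.297 in untreated cells (SD, n = 4 each). It was lower than untreated on the deposited scale (log2 fold change -0.39 with PLG+EACA+RNase and -0.40 with PLG+EACA) and did not pass after median-of-ratios scaling (-0.20 with PLG+EACA+RNase and -0.17 with PLG+EACA). Over 18 alternatives it passed in 17 with PLG+EACA+RNase and in 15 with PLG+EACA. P4ha2, the sister subunit of P4ha1, averaged 0.646 ± 0.257 FPKM with PLG+EACA+RNase, 0.400 ± 0.0445 with PLG+EACA and 0.362 ± 0.0477 in untreated cells and was too low to be tested, as was the HIF target Ankrd37 with 0.274 ± 0.230 FPKM with PLG+EACA+RNase, 0.191 ± 0.0982 with PLG+EACA and 0.235 ± 0.0703 in untreated cells.

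HIF binds DNA at cores such as ACGTG, so the 250 bases before each listed RefSeq transcript start (GRCm38.p6) were searched for ACGTG on either strand (ACGTG or CACGT; the palindrome CACGTG holds both and counts as 2). Of 31 members with a listed promoter, 21 (67.7%) had at least 1 match, against 26% of the 8184 tested genes and 18.5% of all 27025 genes with a listed promoter. By promoter it was 24 of 42 (57.1%), against 22.4% of those of tested genes and 16.6% of all. The members include known HIF targets, so this describes the choice of genes, and a match is no evidence of binding here. Windows of 4 genes follow, all with a match. They are for 3 of the 7 genes with a difference between the treatments that passed on both scales, and for Hk2, which passed against untreated cells. Not shown are the rest of the 7, namely Slc16a1, Egln1 and Vegfa, which hold a match, and Tpi1, which holds none. The Vegfa match lies in a window with 218 of 250 bases in Vegfa exons, and its other listed window holds none. Capitals mark the matches. The Egln3 window is chr12:54203875-54204124 on the minus strand with 1 match at -229, and Slc16a3 is chr11:120948817-120949066 on the plus strand with matches at -27 and -14. Bnip3 is chr7:138909507-138909756 on the minus strand with the palindrome at -108, and Hk2 is chr6:82774455-82774704 on the minus strand with matches at -226 and -52. In GENCODE M21 the Egln3 and Hk2 windows overlap no exon, while 14 bases of the Slc16a3 window and 13 of the Bnip3 window lie in annotated exons of the same genes. The windows listed for Adm, Tpi1 and Pfkl hold no match.
Egln3: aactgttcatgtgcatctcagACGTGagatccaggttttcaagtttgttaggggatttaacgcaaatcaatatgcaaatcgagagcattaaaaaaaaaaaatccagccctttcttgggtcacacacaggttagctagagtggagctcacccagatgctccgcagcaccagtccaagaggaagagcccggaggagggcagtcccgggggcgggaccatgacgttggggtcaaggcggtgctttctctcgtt
Slc16a3: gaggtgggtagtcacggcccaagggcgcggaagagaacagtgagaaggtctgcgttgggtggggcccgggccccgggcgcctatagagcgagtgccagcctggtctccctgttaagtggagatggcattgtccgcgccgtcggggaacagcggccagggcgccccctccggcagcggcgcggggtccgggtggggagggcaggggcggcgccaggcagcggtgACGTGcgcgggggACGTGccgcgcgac
Bnip3: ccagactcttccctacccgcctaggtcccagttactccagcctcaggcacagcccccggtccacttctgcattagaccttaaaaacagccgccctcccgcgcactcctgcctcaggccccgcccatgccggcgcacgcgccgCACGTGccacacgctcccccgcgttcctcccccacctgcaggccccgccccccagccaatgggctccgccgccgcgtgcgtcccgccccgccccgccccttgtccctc
Hk2: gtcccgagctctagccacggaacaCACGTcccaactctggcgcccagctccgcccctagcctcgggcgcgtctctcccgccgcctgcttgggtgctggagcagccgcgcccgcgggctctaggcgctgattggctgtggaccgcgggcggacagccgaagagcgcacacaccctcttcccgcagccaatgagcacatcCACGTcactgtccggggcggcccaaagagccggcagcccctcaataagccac

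Among the carriers, Slc16a3, the lactate exporter of glycolytic cells, separated the treatments. It had 14.5, 16.8, 18.4 and 12.8 FPKM with PLG+EACA+RNase, 10.4, 10.7, 10.6 and 9.67 FPKM with PLG+EACA, and 12.3, 11.7, 12.1 and 12.5 FPKM in untreated cells. On the deposited scale every PLG+EACA+RNase library was above, and every PLG+EACA library below, every untreated one. The log2 fold change between the treatments was 0.56 (SE 0.0900, adjusted p = 0.00437), or 1.47-fold, and for PLG+EACA+RNase against untreated cells it was 0.33 (adjusted p = 0.00606) and 0.56 after scaling, where it passed too. For PLG+EACA against untreated cells it was -0.22 (adjusted p = 0.0443) on the deposited scale, a call lost when any of the 8 libraries was left out (0.0556 to 0.105), and 0.04 after scaling, with adjusted p from 0.00246 to 0.681 over 18 alternatives. Slc16a3 lies on the plus strand at chr11:120948480-120960868.

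Slc16a1, the carrier that moves lactate in either direction, had 2.65, 2.38, 2.62 and 2.13 FPKM with PLG+EACA+RNase, 1.37, 1.60, 2.37 and 1.48 FPKM with PLG+EACA, and 3.31, 2.78, 3.51 and 3.40 FPKM in untreated cells. On the deposited scale all treated libraries lay below all untreated ones, and PLG+EACA replicate 3 fell among the PLG+EACA+RNase libraries. PLG+EACA was lower than untreated with a log2 fold change of -0.78 (adjusted p = 0.000157), and of -0.55 after scaling, where it passed too. PLG+EACA+RNase was higher than PLG+EACA by 0.44 (SE 0.125, adjusted p = 0.0311), a call lost without any of PLG+EACA+RNase replicates 1, 2 and 3 and PLG+EACA replicates 1, 2 and 4 (range 0.00690 to 0.0840 over 18 alternatives). Against untreated cells PLG+EACA+RNase was lower on the deposited scale (-0.35, adjusted p = 0.0280) and did not pass after scaling (-0.15), nor without any of PLG+EACA+RNase replicates 2 and 4 and untreated replicates 1, 3 and 4 (0.0551 to 0.0755). Slc2a1, the basal glucose carrier, averaged 76.2 ± 3.18 FPKM with PLG+EACA+RNase, 69.5 ± 2.14 with PLG+EACA and 70.8 ± 3.19 in untreated cells. It passed no test on the deposited scale with all libraries. Without PLG+EACA+RNase replicate 4 it passed between the treatments (adjusted p = 0.0429, within 0.0429 to 0.728) and against untreated cells (0.0493), as it did against these without untreated replicate 4 (0.0233, within 0.000166 to 0.164). After scaling it was higher than untreated by 0.34 with PLG+EACA+RNase and 0.25 with PLG+EACA.

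At the entry of glycolysis all 3 hexokinases, which trap glucose as its phosphate, were higher in treated cells. Hk2, the inducible form, had 25.9, 30.1, 26.9 and 25.8 FPKM with PLG+EACA+RNase, 25.1, 21.8, 24.5 and 22.8 FPKM with PLG+EACA, and 16.1, 15.1, 14.7 and 16.1 FPKM in untreated cells. The 3 groups did not overlap. Its log2 fold change was 0.79 (adjusted p = 1.04e-06) with PLG+EACA+RNase and 0.59 (adjusted p = 7.43e-06) with PLG+EACA against untreated cells. Between the treatments it was 0.20 (SE 0.0627, adjusted p = 0.0409), and 0.16 after scaling, where it did not pass.

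Hk1, the widely expressed form, had 16.3, 16.7, 19.5 and 16.2 FPKM with PLG+EACA+RNase, 16.1, 14.7, 14.8 and 16.7 FPKM with PLG+EACA, and 10.8, 10.1, 11.3 and 10.6 FPKM in untreated cells. Hk3, the form of myeloid cells and the most abundant of the 3 per length, had 118, 126, 130 and 136 FPKM with PLG+EACA+RNase, 131, 125, 128 and 130 FPKM with PLG+EACA, and 101, 100.4, 102 and 99.8 FPKM in untreated cells. In both genes every treated library exceeded every untreated one, and the treatments overlapped. Against untreated cells Hk1 rose by 0.66 and 0.52 (adjusted p = 5.99e-06 and 3.15e-05 for PLG+EACA+RNase and PLG+EACA), and Hk3 by 0.33 and 0.35 (adjusted p = 3.90e-05 and 2.54e-05).

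**Figure D4:**
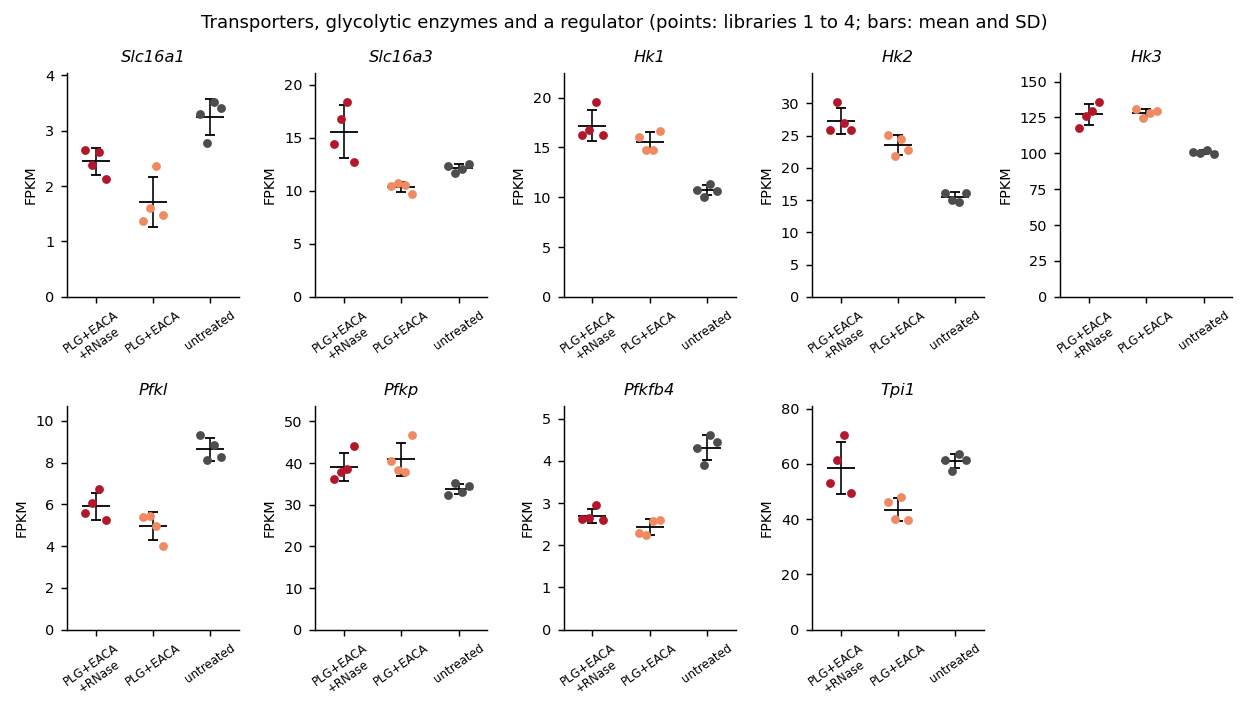
FPKM (vertical, from 0) of 9 transporters, enzymes and regulators in the 3 groups (horizontal), with 1 point per library and bars for the mean and SD of 4 libraries. The hexokinases and Pfkp are higher in treated than in untreated libraries, Pfkl, Pfkfb4 and Slc16a1 are lower, and Slc16a3 and Tpi1 are higher with PLG+EACA+RNase than with PLG+EACA.

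The phosphofructokinases, which commit sugar to glycolysis, differed in direction. Pfkp, the platelet form, had 36.3, 37.8, 38.5 and 44.0 FPKM with PLG+EACA+RNase, 40.5, 38.4, 37.9 and 46.7 FPKM with PLG+EACA, and 32.4, 35.1, 33.0 and 34.5 FPKM in untreated cells. Pfkl, the liver form, had 5.57, 6.08, 6.76 and 5.26 FPKM with PLG+EACA+RNase, 5.40, 5.46, 4.97 and 4.02 FPKM with PLG+EACA, and 9.32, 8.14, 8.85 and 8.26 FPKM in untreated cells. Treated and untreated libraries did not overlap in either gene, with Pfkp above and Pfkl below untreated cells. Pfkp rose by 0.21 with PLG+EACA+RNase (adjusted p = 0.0257) and by 0.27 with PLG+EACA (adjusted p = 0.00630). The call with PLG+EACA+RNase was lost without PLG+EACA+RNase replicate 4 (adjusted p = 0.0743), untreated replicate 1 (0.0676) or untreated replicate 3 (0.0601), within 0.000435 to 0.0743 over 18 alternatives. Pfkl was lower, at -0.51 with PLG+EACA+RNase (adjusted p = 0.000528) and -0.75 with PLG+EACA (adjusted p = 2.85e-05), and also after scaling (-0.29 and -0.49). Pfkp shares 748 exon bases, 5.58% of its length, with Pitrm1 on the opposite strand, at 8.47 FPKM. Pfkm, the muscle form, averaged 1.46 ± 0.162 FPKM with PLG+EACA+RNase, 1.25 ± 0.222 with PLG+EACA and 1.76 ± 0.133 in untreated cells and was lower than untreated with PLG+EACA on the deposited scale only (-0.38, adjusted p = 0.00583).

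Further down, Tpi1 (triose phosphate isomerase, chr6:124810586-124814296, minus strand) was the only enzyme that passed between the treatments on both scales. It had 53.0, 61.4, 70.4 and 49.4 FPKM with PLG+EACA+RNase, 46.1, 40.1, 48.1 and 39.6 FPKM with PLG+EACA, and 61.5, 57.6, 63.6 and 61.4 FPKM in untreated cells. On the deposited scale PLG+EACA lay below both other groups, which overlapped. The log2 fold change between the treatments was 0.42 (SE 0.101, adjusted p = 0.0169), and without PLG+EACA+RNase replicate 2 it missed the threshold (adjusted p = 0.0518, range 0.00380 to 0.0618 over 18 alternatives). PLG+EACA was lower than untreated, at -0.49 (adjusted p = 0.00101) on the deposited scale, and did not pass after scaling (-0.21).

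The remaining enzymes differed by less. Gpi1 (glucose phosphate isomerase), Gapdh, Pgam1 (phosphoglycerate mutase), Pkm and Ldha (lactate dehydrogenase A) were higher with PLG+EACA+RNase than with PLG+EACA on the deposited scale by 0.13 to 0.21 in log2 (adjusted p = 0.0280 to 0.0487), and with Hk2 they make up the 6 that did not pass after scaling. Each of these 6 lost its call in 4 to 6 of 8 fits with 1 library left out, which among them involved every library of the treatments but PLG+EACA+RNase replicate 4 (adjusted p of 0.0517 to 0.136 where lost). Ldha averaged 87.9 ± 6.09 FPKM with PLG+EACA+RNase, 77.3 ± 4.48 with PLG+EACA and 101 ± 4.71 in untreated cells, and Pgam1 109 ± 7.03 FPKM with PLG+EACA+RNase, 94.6 ± 8.56 with PLG+EACA and 127 ± 6.38 in untreated cells. Against untreated cells Gpi1, Pgam1 and Ldha were lower in both treatments on the deposited scale and passed in neither after scaling. Pkm averaged 305 ± 15.9 FPKM with PLG+EACA+RNase, 272 ± 11.2 with PLG+EACA and 307 ± 9.74 in untreated cells and Gapdh 349 ± 26.4 FPKM with PLG+EACA+RNase, 309 ± 12.8 with PLG+EACA and 356 ± 12.9 in untreated cells, and both were lower than untreated with PLG+EACA on the deposited scale only and higher than untreated with PLG+EACA+RNase after scaling only (0.22 and 0.20). Aldoa averaged 439 ± 15.7 FPKM with PLG+EACA+RNase, 411 ± 25.6 with PLG+EACA and 451 ± 8.99 in untreated cells, and its difference between PLG+EACA and untreated cells changed sign with the scale (-0.14, adjusted p = 0.0238, and 0.14 after scaling, where it passed as higher). The first was lost without any of PLG+EACA replicates 3 and 4 and untreated replicates 3 and 4 (0.0517 to 0.0639). Pgk1 (phosphoglycerate kinase) averaged 153 ± 7.11 FPKM with PLG+EACA+RNase, 146 ± 3.33 with PLG+EACA and 147 ± 6.28 in untreated cells, and was higher than untreated after scaling only (0.30 with PLG+EACA+RNase and 0.27 with PLG+EACA). Pkm shares 15.3% of its length with Gm49759 on the same strand, at 6.01 FPKM.

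Of the regulators, Pfkfb4, 1 of the bifunctional enzymes that set the level of the activator of phosphofructokinase, had 2.63, 2.64, 2.95 and 2.60 FPKM with PLG+EACA+RNase, 2.30, 2.25, 2.58 and 2.60 FPKM with PLG+EACA, and 4.30, 3.90, 4.61 and 4.46 FPKM in untreated cells. It was lower in all treated libraries, at -0.59 with PLG+EACA+RNase (adjusted p = 1.37e-05) and -0.72 with PLG+EACA (adjusted p = 2.91e-06). Its sister Pfkfb3, the form linked to inflammatory activation, averaged 9.01 ± 0.556 FPKM with PLG+EACA+RNase, 8.48 ± 0.831 with PLG+EACA and 7.98 ± 0.797 in untreated cells and was higher than untreated after scaling and not on the deposited scale (0.39 with PLG+EACA+RNase and 0.34 with PLG+EACA). For PLG+EACA+RNase it was also higher without untreated replicate 1 (0.23, adjusted p = 0.0222, within 0.000485 to 0.215 over 18 alternatives). Pdk1, which shuts pyruvate dehydrogenase, averaged 1.10 ± 0.145 FPKM with PLG+EACA+RNase, 0.973 ± 0.144 with PLG+EACA and 1.12 ± 0.162 in untreated cells and passed no test on either scale.

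Shares within an enzyme family do not move with the scale of a library. Egln3 made up 29.0% ± 3.48 of the summed FPKM of Egln1 and Egln3 with PLG+EACA+RNase, 20.8% ± 1.31 with PLG+EACA and 3.96% ± 1.65 in untreated cells (SD, n = 4 each), and the 3 groups did not overlap. Of Pfkfb3 and Pfkfb4, Pfkfb3 made up 76.9% ± 1.48 with PLG+EACA+RNase, 77.6% ± 1.66 with PLG+EACA and 64.8% ± 2.27 in untreated cells. Of the phosphofructokinases, Pfkl made up 12.8% ± 1.72 with PLG+EACA+RNase, 10.6% ± 1.95 with PLG+EACA and 19.6% ± 1.59 in untreated cells, and of the lactate carriers Slc16a3 made up 86.3% ± 1.48 with PLG+EACA+RNase, 86.0% ± 2.93 with PLG+EACA and 78.9% ± 1.36 in untreated cells. In these 3 families every treated library lay on the same side of every untreated one. Of the hexokinases, Hk2 made up 15.9% ± 1.25 with PLG+EACA+RNase, 14.1% ± 0.640 with PLG+EACA and 12.2% ± 0.608 in untreated cells. Of 30 exact two-sided permutation tests of such shares, 17 reached 0.0286, the smallest p that 4 against 4 libraries allow, and with Benjamini-Hochberg adjustment over the 30 their p was 0.0504, so none passed.

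**Figure D5:**
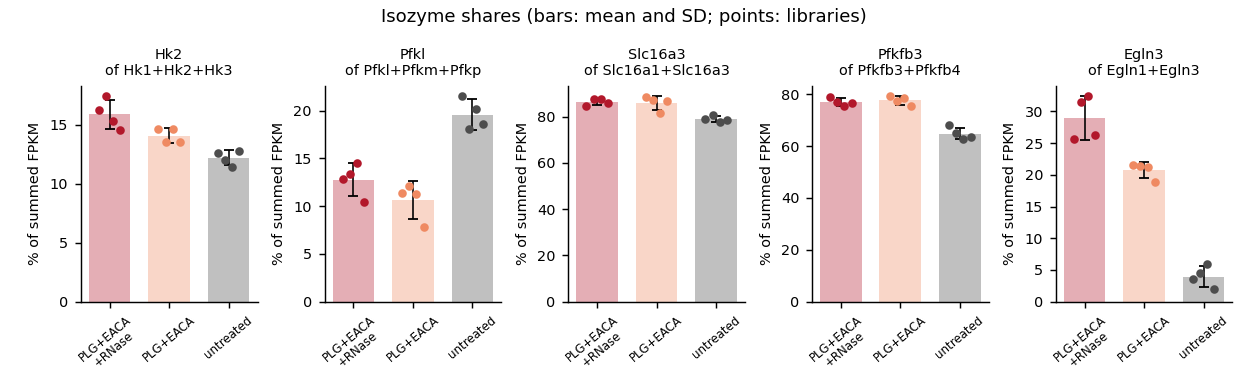
Share of 5 members in the summed FPKM of their family (vertical, percent, from 0) in the 3 groups (horizontal), with bars and error bars for the mean and SD and 1 point per library. The Egln3 share is 29.0% with PLG+EACA+RNase, 20.8% with PLG+EACA and 3.96% in untreated cells.

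Genes of the same pathways outside the members were counted alongside. Of 16 tested genes of other glycolysis and pyruvate steps, 3 were higher and 2 lower with PLG+EACA+RNase than with PLG+EACA on both scales, where 10.4% and 8.68% of all genes tested were, and counts this small do not set the list apart. They include Eno3, an enolase (0.50), Slc2a6, a sugar carrier (-0.39), Pgam2, a mutase (0.24), and Pdk3, a kinase of pyruvate dehydrogenase (-0.59). Of 7 pentose phosphate genes 0 passed with limma or with limma voom, and 1 was higher and 2 lower at an unadjusted p under 0.05. Of 24 genes of the HIF pathway and other HIF targets 8 were higher and 4 lower on both scales, beside the same shares of all genes, with the smallest p for Cited2, a HIF antagonist (-0.56), Gys1, glycogen synthase (0.61), Hilpda, a lipid droplet protein (1.05), and Bhlhe40, a transcriptional repressor (0.25).

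Against untreated cells the same lists were mixed. On both scales 16.0% of all genes tested were higher and 26.4% lower with PLG+EACA+RNase, and 14.9% higher and 26.4% lower with PLG+EACA, and nothing about the lists is read from counts of this size. With PLG+EACA+RNase the glycolysis and pyruvate list had 3 higher and 3 lower on both scales, among them Pdk2 (-1.05), Mpc2, a subunit of the pyruvate carrier (-0.48), Pgam2 (0.47) and Gpd2, a mitochondrial glycerol phosphate dehydrogenase (0.57). With PLG+EACA it had 4 higher and 4 lower, among them Pdk2 (-1.37), Gpd2 (0.80), the major enolase Eno1 (-0.52) and Tigar, a phosphatase that slows glycolysis (-0.39). In each treatment 2 pentose phosphate genes were higher, Pgd (0.32 with PLG+EACA+RNase and 0.42 with PLG+EACA) and Taldo1 (0.16 and 0.21), and 2 were lower, Pgls (-0.41 and -0.57) and Rpia (-0.66 and -0.58). The HIF list had 7 higher and 7 lower with PLG+EACA+RNase, with the smallest p for Hmox1, heme oxygenase (2.04), Vhl, which binds hydroxylated HIF alpha for destruction (-0.59), Pgf, placental growth factor (-1.11), and Hif1an, the HIF asparaginyl hydroxylase (-0.48). With PLG+EACA 6 were higher and 5 lower, with the smallest p for Vhl (-0.72), Hmox1 (1.51), Cited2 (0.90) and Gbe1, the glycogen branching enzyme (0.62).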

How the data were processed

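The 32 genes and all lists were chosen with earlier results of these data known. The authors deposited 1 table of FPKM values (fragments scaled by gene length and library size) for 12 libraries. The submitters' processing notes list build GRCm38.p6 with the aligner STAR 2.7.11a, the counter featureCounts 2.0.6, cutadapt 4.5 and DESeq2 1.40.2 but not their settings, and whether counting used strand is not given in the sources used here. At least 99.99% of the values of a library came out within 0.1 of a whole read, which gave its depth. The table's 31595 IDs found in GENCODE M21 had identical coordinates. Genes with at least 1 FPKM in at least 4 libraries (11165) were fitted over all 3 groups at once with limma 3.58.1 (R 4.3.3, intensity-dependent prior) on log2(FPKM + 0.5), with Benjamini-Hochberg adjustment. Size factors for the second scale were medians of ratios over 10874 genes. As an alternative, limma voom on the recovered reads called 2427 genes between the treatments, 7256 for PLG+EACA+RNase and 7703 for PLG+EACA against untreated cells. Members called on both scales are given per library, and of the other lists up to 4 genes of smallest p called on both. Family shares were tested with exact permutation tests (Python 3.11.15, scipy 1.17.1). The fit was tested on simulated data. The erythroid marker list is not reported here.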

Additional observations from a re-analysis of the deposited data

Results flagged for a closer look

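In 6 of 129 groups of 4 libraries, 1 library lay far from the other 3 by Dixon's test, and chance gives about 1 in 20. Hk1 was at 19.5 FPKM in PLG+EACA+RNase replicate 3, with the others at 16.2 to 16.7 FPKM. Pfkfb4 was at 2.95 FPKM in the same library, with the others at 2.60 to 2.64 FPKM. Ndrg1 was at 26.6 FPKM in PLG+EACA+RNase replicate 4, with the others at 34.9 to 35.6 FPKM. P4ha1 was at 27.5 FPKM in PLG+EACA replicate 4, with the others at 23.1 to 23.6 FPKM, and at 18.3 FPKM in untreated replicate 2, with the others at 16.9 to 17.1 FPKM. The Egln3 share of Egln1 and Egln3 was 18.8% in PLG+EACA replicate 4, with the others at 21.3% to 21.6%.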

How the results depend on the processing

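Between the treatments 13 members were higher. The count was 6 with no filter on low values and 7 after median-of-ratios scaling. It was 6 after such scaling over all 16373 genes above 0 in every library, a choice made after seeing the data. In a fit of the 2 groups alone it was 2, and with 1 library left out 3 to 15. Apart from median-of-ratios scaling, the share of all genes called in these settings is not given. Against untreated cells the 14 lower members with PLG+EACA became 4 under either scaling and 6 with scaling and a replicate block. With PLG+EACA+RNase the 12 higher members became 19 under scaling, with or without the replicate block, and the 8 lower ones became 2, or 4 with scaling over all genes and 3 with scaling and the block. These scalings set the median of all genes near 0. Same-numbered libraries correlated by -0.176 to 0.332 in their deviations from the group means, and differently numbered ones of different groups by -0.336 to 0.118. This does not settle whether the numbers stand for pairs. The main fit did not take them as pairs, and fits with a replicate block are given beside it. With the replicate block alone 13 members were again higher between the treatments, but Hk2 was not among them (adjusted p = 0.0644, range 0.0285 to 0.214 over 18 alternatives) and Ndrg1 was (0.0209, and 0.0230 with the block and scaling, range 0.0156 to 0.152). Against untreated cells the block also called Vegfa higher (0.0202, range 0.00159 to 0.294) and Bnip3 lower (0.0294, range 0.0174 to 0.531) with PLG+EACA, and Pfkfb3 higher with PLG+EACA+RNase (0.0327, range 0.000485 to 0.215). It moved no count by over 1.5 times.

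Some signs changed, in part of differences near 0. Only 1 member, Aldoa for PLG+EACA against untreated cells, was called in opposite directions on the deposited scale and after median-of-ratios scaling. With no filter the members' median for PLG+EACA against untreated cells lay -0.11 from that of all genes, and 0.12 with the filter. For PLG+EACA+RNase against untreated cells it kept its sign, at 0.063 with no filter and 0.29 with it. Scaling changed the sign of some log2 fold changes for PLG+EACA against untreated cells. Slc16a3 went from -0.22 to 0.044, Slc2a1 from -0.026 to 0.25 and Aldoa from -0.14 to 0.14. Pkm went from -0.18 to 0.10, Gapdh from -0.20 to 0.074 and Pgk1 from -0.0031 to 0.27. The values were the same with the replicate block. Scaling over all genes turned them to 0.056, 0.26, 0.15, 0.11, 0.086 and 0.29 in that order. For PLG+EACA+RNase against untreated cells, scaling took Pgam1 from -0.22 to 0.014, Aldoa from -0.037 to 0.20 and Pkm from -0.012 to 0.22. It took Gpi1 from -0.17 to 0.066, Gapdh from -0.033 to 0.20 and Ldha from -0.19 to 0.038. Scaling over all genes turned Aldoa to 0.15, Pkm to 0.18 and Gpi1 to 0.020. Pseudocounts of 0.1 and 1 changed no member's call. Taken from reads in place of FPKM, 14 of 30 family share differences moved by more than the replicate SD and none changed sign.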
